A study of Rattus norvegicus with 12 samples.

Results

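Smooth muscle cells grown from the aorta of newborn rats were stimulated for 120 min with 25 µM TRAP, the thrombin receptor-activating peptide, and their transcripts were compared with those of unstimulated cells of the same experiment. The 4 arrays of this comparison, 2 of TRAP and 2 unstimulated, were chosen by their titles from 12 Affymetrix arrays, each hybridised with biotin-labelled RNA of 1 sample. The cells of every group were primary cultures grown with serum and then kept overnight without it, in medium with albumin. The other 8 arrays belong to 2 further experiments, each with 2 unstimulated arrays of its own. Their stimuli were 2 U/ml thrombin for 120 min, and 25 µM TRAP for 120 min after 24 h with 200 ng/ml pertussis toxin (PTX). For the unstimulated cells of the PTX experiment the labels give the agent as none and leave unsaid whether the toxin was present. By its title and design, the study asks which early changes in transcription follow stimulation of thrombin receptors and which of them need Gi proteins. Nothing in the labels says whether replicates are separate cultures, so each p-value reflects the spread between these arrays alone, which may be technical. With 2 arrays a group the number of arrays limits the precision, and the median SE of a log2 change after TRAP was 0.16. In a culture measured in bulk, fewer cells of a type and less RNA per cell cannot be told apart.

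Thrombin, the last protease of the clotting cascade, activates its receptors by cutting off their outer end, and the end so exposed folds back and acts as the ligand. TRAP is a short peptide with the sequence of such a ligand, so it acts on the receptor without any cleavage. The receptors couple to several classes of G protein, of which PTX uncouples the Gi class. In vascular smooth muscle they are known to raise calcium and to activate MAP kinases and NF-kB. MAP kinases act on promoters that already hold the factors for immediate-early genes, many of which encode transcription factors and feedback inhibitors. NF-kB is held in the cytoplasm by the inhibitor that Nfkbia encodes, and it induces chemokines together with its own inhibitors. The aryl hydrocarbon receptor is a transcription factor switched on by small ligands, and Cyp1b1, Ahrr and Tiparp are among its common targets.

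The promoters of 7 genes that rose after TRAP are shown to place the responses of NF-kB genes and of aryl hydrocarbon receptor targets beside their DNA. They were chosen after the matches were seen. Sequences are those of RefSeq, build GRCr8, 5′ to 3′ along the gene, and cover the 150 bases before the annotated start. In the first 4, capitals mark matches to the NF-kB motif GGGANTTNCC on either strand. They lie at Cxcl1 at chr14:17479322-17479471 on the minus strand, Nfkbiz at chr11:58251571-58251720 on the plus strand, Nfkbia at chr6:78597073-78597222 on the minus strand and Tnfaip3 at chr1:15543980-15544129 on the minus strand.
Cxcl1: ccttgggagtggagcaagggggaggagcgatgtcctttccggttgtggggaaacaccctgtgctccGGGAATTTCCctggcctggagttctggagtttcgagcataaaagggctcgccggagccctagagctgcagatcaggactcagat
Nfkbiz: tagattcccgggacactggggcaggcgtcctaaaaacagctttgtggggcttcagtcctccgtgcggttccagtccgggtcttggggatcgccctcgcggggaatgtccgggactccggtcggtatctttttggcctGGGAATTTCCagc
Nfkbia: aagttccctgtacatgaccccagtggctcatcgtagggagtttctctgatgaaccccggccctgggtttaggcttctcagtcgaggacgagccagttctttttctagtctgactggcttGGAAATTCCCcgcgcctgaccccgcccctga
Tnfaip3: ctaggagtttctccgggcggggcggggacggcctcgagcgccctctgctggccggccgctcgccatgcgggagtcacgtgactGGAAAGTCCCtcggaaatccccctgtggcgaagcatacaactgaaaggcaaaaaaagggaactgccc

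In the promoters of 3 targets of the aryl hydrocarbon receptor, capitals mark the core motif GCGTG on either strand. They lie at Tiparp at chr2:152063619-152063768 on the plus strand, Ahrr at chr1:30822069-30822218 on the plus strand and Cyp1b1 at chr6:21094415-21094564 on the plus strand.
Tiparp: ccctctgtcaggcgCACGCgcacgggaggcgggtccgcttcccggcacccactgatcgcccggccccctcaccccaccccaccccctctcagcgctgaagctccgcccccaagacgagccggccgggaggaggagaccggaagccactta
Ahrr: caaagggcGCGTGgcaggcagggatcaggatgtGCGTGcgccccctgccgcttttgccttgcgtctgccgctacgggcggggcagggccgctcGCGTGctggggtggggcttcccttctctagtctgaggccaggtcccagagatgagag
Cyp1b1: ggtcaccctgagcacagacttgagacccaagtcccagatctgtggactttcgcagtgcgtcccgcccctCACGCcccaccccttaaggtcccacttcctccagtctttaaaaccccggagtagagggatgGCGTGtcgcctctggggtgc

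The NF-kB match began 84 bases before the start of Cxcl1, 13 before that of Nfkbiz, 31 before that of Nfkbia and 67 before that of Tnfaip3. In windows from 250 bases before to 50 after the start, GGGANTTNCC was found in 1.14% of 27457 promoters. It was found in 2.73% of the 183 listed for genes that rose after TRAP, which is 5 promoters, the 4 shown among them. For genes that fell it was found in 0.704% of the 142 listed. The 27457 are all promoters listed, not only those of the genes tested. A promoter was listed for 325 of the 392 genes called. The 5-letter core GCGTG is common, at 31.1% of all promoters, 57.9% of those of risen and 52.1% of those of fallen genes. The cyclic AMP response element TGACGTCA was found in 1.91%, 6.01% and 1.41%, the AP-1 motif TGANTCA in 7.33%, 6.56% and 0.704%, and the CArG box in 1.64%, 3.28% and 1.41% of the same sets. The ATF4 composite motif TGATGNAA was found in 3.82%, 2.19% and 3.52%. All motifs were searched on both strands, and a match describes the letters of the window only.

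The 4 arrays were alike in overall signal. Their median signals lay between 44.0 and 51.1, replicates correlated over probe sets with r = 0.9914 for the unstimulated pair and 0.9872 for the TRAP pair, and the 3′ to 5′ ratio of GAPDH lay between 1.145 and 1.177. TRAP replicate 1 stood apart from the other 3 arrays in inflammation genes and in cell cycle genes. In 58 of 9906 genes (0.586%) the TRAP replicates differed by more than 2-fold, 37 (0.374%) being higher on replicate 1 and 21 (0.212%) on replicate 2, against 18 (0.182%) for the unstimulated replicates. Values are therefore given for each array, as unstimulated replicates 1 and 2 followed by TRAP replicates 1 and 2, and counts are also given with arrays left out. Many transcripts of smooth muscle and some of fibroblasts were bright. Acta2, the smooth muscle actin, was at 7539 and 8447 in unstimulated cells and at 7409 and 8346 after TRAP. All 21 contractile markers on the array passed the filter on dim signals, and none was called changed after TRAP, by limma's test at an adjusted p under 0.05 (median log2 change -0.01, lowest -0.39, highest 0.26). Myh11, the smooth muscle myosin, and Des, a muscle intermediate filament protein, were dim, at 47.5 to 65.8 and at 18.4 to 25. Among markers of adventitial fibroblasts, Mfap5, a microfibril protein, lay between 5381 and 6222 and Dcn, the proteoglycan decorin, between 2080 and 2424, while Tcf21 lay at 14.7 or below. Of the 11 such markers on the array 8 passed the filter. Pdgfra, Dpep1 and Lum lay between 124.2 and 390, and Scara5 and Pi16 were dim, at 30.3 to 66.6 and at 13.3 to 39. Pecam1, which marks endothelial cells, lay between 0.7 and 7.5, and Ptprc, which marks leukocytes, between 0.6 and 1.9.

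F2r, which encodes the main thrombin receptor, was at 2917 and 3267 in unstimulated cells and at 3252 and 3451 after TRAP (log2 change 0.12 ± 0.09 SE, limma adjusted p = 0.604). F2rl1, a related receptor cut mainly by trypsin-like proteases, was at 59.2 and 57.7, then 62.0 and 91.4 (0.30 ± 0.21, adjusted p = 0.551). The other members, F2rl2 and F2rl3, lay below the filter, at no more than 16.4 on any of the 4 arrays.

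TRAP changed 392 of 9906 genes (3.96%) within 120 min, of which 213 rose (2.15%) and 179 fell (1.81%). A gene here is its brightest probe set, the change is in log2(signal + 16), and called means a limma adjusted p under 0.05. On the level of probe sets, 342 rose (1.84%) and 385 fell (2.07%) of 18625 (3.90% called). The largest rise was that of Cxcl1, a chemokine for neutrophils, and the largest fall that of Id2, an inhibitor of basic helix-loop-helix factors. Without regard to the test, both TRAP arrays lay above both unstimulated arrays in 1949 genes (19.7%) and below them in 2898 (29.3%). Only 105 of the 392 genes, 78 risen and 27 fallen, were called whichever of the 4 arrays was left out. The probe sets called numbered 208 and 246 without unstimulated replicates 1 and 2, and 442 and 348 without TRAP replicates 1 and 2. They numbered 73, of which 57 rose, with all 6 unstimulated arrays of the series as the control. Of 57 genes described here as called after TRAP, that control left 17 called in the same direction. These were Fosl1, Egr1, Junb, Ier2, Ptgs2, Plaur, Olr1, Noct, Zfp36, Tgif1, Id3, Tslp, Nfkbiz, Cyp1b1, Id2, Tbx5 and Sesn2. Among those no longer called, the changes were 2.73 for Cxcl1, 1.52 for Ccl2, 1.04 for Nfkbia, 1.01 for Tnfaip3, 1.14 for Dusp5, 1.02 for Hbegf, 0.62 for Irf1, 0.23 for Icam1, 0.83 for Tiparp and 0.69 for Zfp36l1. They were -0.28 for Hey2, -0.59 for Arid5b, -0.54 for Nfix, -0.60 for Kcne4 and -0.24 for Palld. With each array centred on its median, 273 genes rose and 109 fell, so the balance of rises and falls moved with the scaling. The median change over all genes was -0.03 as analysed and 0.04 after centring.

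**Figure D1:**
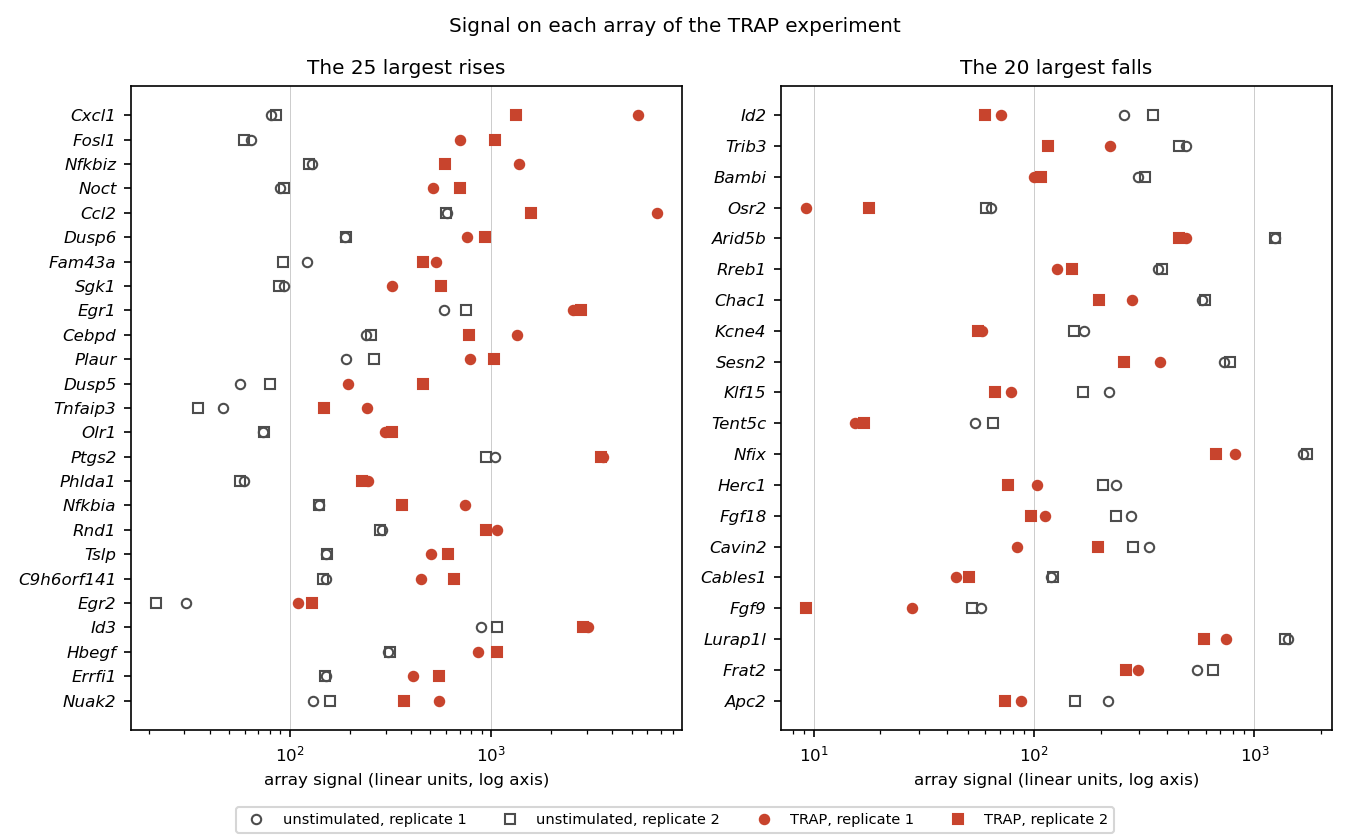
Signal on each of the 4 arrays for the 25 largest rises (left) and the 20 largest falls (right) among called genes, on a log axis, with open symbols for unstimulated and filled symbols for TRAP arrays. In each gene both TRAP arrays lie on the same side of both unstimulated arrays, as the rule for showing a gene required. Cxcl1 and Ccl2 show the TRAP replicates far apart, at 5355 and 1333 and at 6681 and 1591, whereas Egr1, Ptgs2 and Id3 show them close together.

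Many immediate-early transcription factors rose. Of the 30 members measured, 16 rose, none fell (53.3% called), and the median log2 change was 0.60, beside -0.03 over all genes tested. Counts here and in the lists below are to be read beside the 3.96% called over all genes, 2.15% risen and 1.81% fallen. The lists and their members were chosen with earlier results of these data known, so these shares are not independent of the data. Fosl1, a Fos-like subunit of AP-1, was at 64.5 and 59.1 in unstimulated cells and at 699.1 and 1050 after TRAP (3.49 ± 0.25, adjusted p = 3.53e-06). Egr1, a zinc finger factor induced through MAP kinases, went from 582 and 749.9 to 2571 and 2793 (1.99 ± 0.11, adjusted p = 5.14e-07). Its relative Egr2 went from 30.4 and 21.7 to 110.2 and 129.6 (1.70 ± 0.21, adjusted p = 0.000356). In these 3 genes both TRAP arrays lay far above the unstimulated arrays, and Fosl1 was higher on TRAP replicate 2. Junb, a Jun subunit of AP-1, went from 196.7 and 245.4 to 646.7 and 637.4 (1.48 ± 0.14, adjusted p = 5.99e-05). Ier2 and Maff, the last a small Maf factor, rose by 1.495 ± 0.13 and 1.29 ± 0.14 on the log2 scale (adjusted p = 1.65e-05 and 0.000117). Fos itself, whose transcript is known to peak early and decay fast, was at 271.3 and 331.1, then 318.3 and 341 (0.13 ± 0.16, adjusted p = 0.770). Fos was chosen after its values were seen. Myc was at 716.7 and 728.5, then 562.8 and 567.9 (-0.34 ± 0.12, adjusted p = 0.137). The count of 16 became 9 and 8 without unstimulated replicates 1 and 2, and 10 without either TRAP replicate.

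Several inhibitors that act back on MAP kinases, receptor tyrosine kinases and G proteins also rose. Of the 19 members measured, 7 rose and none fell (36.8% called, median 0.50). Dusp6, a phosphatase that inactivates ERK, was at 188.6 and 190.2 in unstimulated cells and at 758.3 and 936.1 after TRAP (2.06 ± 0.15, adjusted p = 3.53e-06). Errfi1, an inhibitor of the EGF receptor, went from 151.3 and 150.6 to 408.8 and 553.8 (1.56 ± 0.19, adjusted p = 0.000367). Sgk1, a kinase induced by serum and glucocorticoids, went from 93.9 and 88.5 to 322 and 567.4 (2.05 ± 0.28, adjusted p = 0.000828). All 3 were higher on TRAP replicate 2 than on replicate 1, and on both far above the unstimulated arrays. Dusp5, a nuclear phosphatase for ERK, was at 56.9 and 79.7, then 194.5 and 458.4 (1.92 ± 0.31, adjusted p = 0.00342). Its call was lost without unstimulated replicate 1 (1.72, adjusted p = 0.0567). The count of 7 became 3 without unstimulated replicate 1 and 4 without TRAP replicate 2. Hbegf, a ligand of the EGF receptor, was at 308.2 and 315.6, then 858.5 and 1068 (1.57 ± 0.12, adjusted p = 6.44e-06). It was among 3 of 20 measured growth factors that rose, a count that became 1 without either unstimulated array. Of the growth factors 20% were called in either direction, and the single one that fell was Fgf18, from 276.4 and 235.4 to 111.8 and 97.0 (-1.17 ± 0.17, adjusted p = 0.00166).

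**Figure D2:**
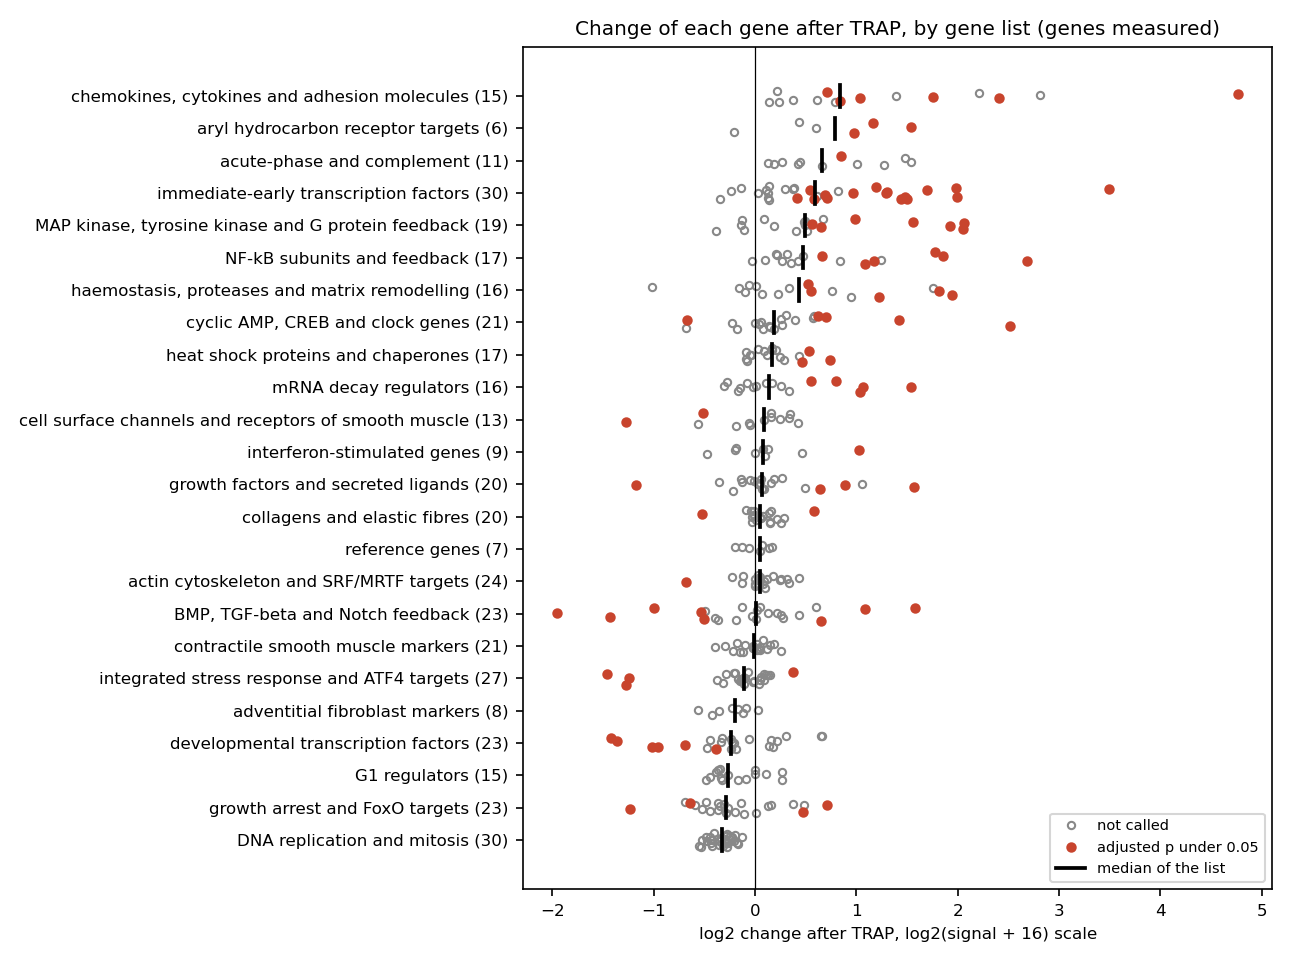
Log2 change after TRAP of every measured gene in the reported lists with at least 5 measured members (count in brackets), with filled points for genes at an adjusted p under 0.05 and a bar at each list's median. Immediate-early factors, feedback inhibitors, chemokines and NF-kB genes lie mostly to the right of 0, with medians from 0.47 to 0.84, and DNA replication and mitosis genes lie to the left of it, with a median of -0.32 and no gene called.

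Several genes of the NF-kB system rose, by amounts that differed between the TRAP replicates. Of 17 measured NF-kB subunits and feedback genes 6 rose and none fell (35.3% called, median 0.47). Nfkbiz, a nuclear regulator of NF-kB, was at 129.5 and 125.2 in unstimulated cells and at 1380 and 594.3 after TRAP (2.69 ± 0.36, adjusted p = 0.000817). Tnfaip3, an enzyme that edits ubiquitin chains and shuts NF-kB signalling off, went from 46.9 and 35.2 to 242.8 and 147.7 (1.86 ± 0.25, adjusted p = 0.000867). Irf1, an interferon regulatory factor that NF-kB can induce, went from 105.3 and 124.3 to 271.5 and 284.6 (1.17 ± 0.14, adjusted p = 0.0003). Nfkbiz and Tnfaip3 were higher on TRAP replicate 1 than on replicate 2, and Irf1 was nearly equal on both. Nfkbia, the cytoplasmic inhibitor of NF-kB, was at 139.3 and 140.7, then 744.7 and 359.9 (1.78 ± 0.34, adjusted p = 0.00973). Its call was kept without TRAP replicate 2 (adjusted p = 0.00488) and lost without either unstimulated array (adjusted p = 0.0837 and 0.0748) or without TRAP replicate 1 (1.27, adjusted p = 0.0836). The subunit Rela, chosen after its values were seen, was at 596.4 and 589.9, then 627.1 and 647.5 (0.10 ± 0.09, adjusted p = 0.668). The count of 6 became 3 without unstimulated replicate 1 and 3 without TRAP replicate 1.

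Of 15 measured chemokines, cytokines and adhesion molecules 6 rose and none fell (40% called, median 0.84). Cxcl1 was at 80.6 and 85.4 in unstimulated cells and at 5355 and 1333 after TRAP (4.77 ± 0.60, adjusted p = 0.000449). Both TRAP arrays lay far above both unstimulated arrays, and the change was 3.77 without TRAP replicate 1. Ccl2, a chemokine for monocytes, was at 607.6 and 598.4, then 6681 and 1591 (2.41 ± 0.60, adjusted p = 0.0384). Its call was kept only without TRAP replicate 2 (adjusted p = 0.00666), and it was lost without TRAP replicate 1 (1.38, adjusted p = 0.287) and without either unstimulated array (adjusted p = 0.195 and 0.186). Ccl20, a chemokine for dendritic cells and lymphocytes, was at 135.2 and 79.2, then 1926 and 350.7 (2.81 ± 0.74, adjusted p = 0.0528), which missed the threshold. The count of 6 became 4 without either unstimulated array and 10 without TRAP replicate 2.

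Some other inflammatory genes rose on both TRAP arrays. Tslp, a cytokine that acts on dendritic cells, was at 152.4 and 154 in unstimulated cells and at 505.3 and 614.9 after TRAP (1.76 ± 0.17, adjusted p = 5.57e-05). Il1rl1, the receptor of the alarmin that Il33 encodes, went from 1053 and 1138 to 2129 and 2405 (1.04 ± 0.11, adjusted p = 0.000108). Another kept probe set of Il1rl1 changed by 0.69 and was not called. Icam1, an adhesion molecule for leukocytes, went from 1436 and 1472 to 2827 and 2410 (0.84 ± 0.13, adjusted p = 0.00208). In each of these genes both TRAP arrays lay above both unstimulated arrays, as they did in 19.7% of all genes. Il15, a growth factor for lymphocytes, was at 289.9 and 298.6, then 497.5 and 483.4 (0.71 ± 0.13, adjusted p = 0.00707). The call of Il15 was lost without unstimulated replicate 1 (adjusted p = 0.0807) or replicate 2 (adjusted p = 0.0562). Cebpd, a transcription factor of the acute-phase response, went from 238.9 and 254.2 to 1351 and 776.6 (1.99 ± 0.23, adjusted p = 0.000238), higher on TRAP replicate 1.

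Of 16 measured genes of haemostasis, proteases and matrix remodelling 5 rose and none fell (31.2% called, median 0.43). F3, the tissue factor that starts clotting, was at 2200 and 2333 in unstimulated cells and at 5534 and 5112 after TRAP (1.23 ± 0.13, adjusted p = 0.000138). Plaur, the receptor of urokinase, went from 189.6 and 262.8 to 791.1 and 1035 (1.94 ± 0.16, adjusted p = 1.28e-05). Ptgs2, the inducible cyclooxygenase of prostaglandin synthesis, went from 1050 and 945.9 to 3592 and 3510.0 (1.82 ± 0.12, adjusted p = 1.91e-06). In all 3 the spread between replicates was small beside the rise. Serpinb2, an inhibitor of plasminogen activators, was at 24.5 and 26.8, then 73.6 and 204 (1.75 ± 0.47, adjusted p = 0.0579), which missed the threshold. The count of 5 became 3 without unstimulated replicate 1 or TRAP replicate 2. Olr1, a scavenger receptor for oxidised lipoprotein, was at 74 and 74.9, then 296.6 and 323.9 (1.85 ± 0.23, adjusted p = 0.000481).

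Of 6 measured aryl hydrocarbon receptor genes 3 rose and none fell (median 0.79), a count that stayed at 3 without any 1 of the 4 arrays. Tiparp, an ADP-ribosyl transferase that limits this receptor, was at 363.1 and 368.7 in unstimulated cells and at 1195 and 995.9 after TRAP (1.54 ± 0.10, adjusted p = 1.84e-06). Another kept probe set of Tiparp was at 542.8 and 410.8, then 1216.7 and 522.4, and was not called (0.74 ± 0.32, limma adjusted p = 0.264). Ahrr, the repressor of this receptor, went from 230.9 and 240.3 to 529.8 and 564.1 (1.16 ± 0.13, adjusted p = 0.000171). Cyp1b1, a cytochrome that oxidises steroids and aromatic compounds, went from 3621 and 3852 to 7226 and 7505 (0.98 ± 0.10, adjusted p = 0.000119). The promoters of these 3 genes hold GCGTG cores. That motif was also found in 31.1% of all promoters, 57.9% of those of risen and 52.1% of those of fallen genes. The members that missed the threshold included Nqo1, an antioxidant enzyme, at 1196 and 1350, then 1757 and 2143 (0.60 ± 0.16, adjusted p = 0.0587). Of 16 measured genes listed under mRNA decay 5 rose and none fell (31.2% called, median 0.14). Among the 5 is Tiparp, already counted above with the aryl hydrocarbon receptor genes. The list includes the family of zinc finger proteins that bind AU-rich elements and speed the decay of short-lived transcripts. Zfp36 was at 313.9 and 317.3, then 641.7 and 686.6 (1.04 ± 0.10, adjusted p = 4.65e-05). Zfp36l1 and Zfp36l2 rose by 1.07 ± 0.15 and 0.80 ± 0.13 (adjusted p = 0.00108 and 0.00359). Other kept probe sets of Zfp36l2 changed by -0.34 and 0.31 and were not called. Noct, a clock-controlled gene first described as a deadenylase, was at 89.6 and 94.1, then 513.8 and 700.7 (2.52 ± 0.19, adjusted p = 6.44e-06).

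Genes that answer bone morphogenetic proteins, TGF-beta and Notch moved in both directions. Of 23 measured members 3 rose and 5 fell (34.8% called, median 0.01). Id3, an inhibitor of basic helix-loop-helix factors, was at 891.8 and 1077 in unstimulated cells and at 3046 and 2863 after TRAP (1.58 ± 0.10, adjusted p = 1.84e-06). Its close relative Id2 went the other way, from 255.7 and 345.7 to 70.7 and 59.9 (-1.95 ± 0.18, adjusted p = 3.38e-05). Another kept probe set of Id2 changed by -1.01 and was not called. The opposite directions of Id3 and Id2 held under every alternative run for them. Bambi, a decoy receptor for this family of ligands, fell from 296.2 and 318.6 to 99.7 and 107.5 (-1.44 ± 0.17, adjusted p = 0.000303). Hey2, a target of Notch, fell from 2488 and 2618 to 1223 and 1323 (-0.99 ± 0.15, adjusted p = 0.00195). Tgif1 and Skil, both corepressors of Smad signalling, rose by 1.09 ± 0.11 and 0.65 ± 0.09 (adjusted p = 6.5e-05 and 0.0016). The count of 5 falls became 3 without any 1 of the 4 arrays.

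Several transcription factors of development fell. Of 23 measured members 6 fell and none rose (26.1% called, median -0.24). Arid5b was at 1236 and 1241 in unstimulated cells and at 486.5 and 455.8 after TRAP (-1.37 ± 0.15, adjusted p = 0.000177). Meox2, a homeobox factor that restrains growth of vascular cells, went from 637.7 and 655.1 to 273.7 and 352.4 (-1.02 ± 0.14, adjusted p = 0.000812). With all 6 unstimulated arrays as the control the sign of Meox2 turned (0.22, adjusted p = 0.945). Tbx5, a T-box factor of the heart and forelimb, went from 217.3 and 220.1 to 104.5 and 105.7 (-0.95 ± 0.16, adjusted p = 0.00364). Each of these 3 was lower on both TRAP arrays than on either unstimulated array, as were 29.3% of all genes. Osr2 was at 63.5 and 60.4, then 9.2 and 17.7 (-1.42 ± 0.32, adjusted p = 0.0243), and its call was lost without each array in turn (adjusted p from 0.0595 to 0.168). The count of 6 became 3 without unstimulated replicate 2. Outside this list, Nfix, a factor of the nuclear factor I family, fell from 1667 and 1732 to 814.9 and 671.4 (-1.18 ± 0.12, adjusted p = 5.99e-05). Rreb1, a zinc finger factor that acts downstream of Ras, fell from 362.8 and 379.1 to 126.9 and 148.1 (-1.34 ± 0.15, adjusted p = 0.000177).

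Among targets of the stress factor ATF4, 3 genes fell and 1 rose of 27 measured (median -0.11), and the rise was lost without any 1 of the 4 arrays. Trib3, a pseudokinase induced by stress of the endoplasmic reticulum, was at 488.7 and 453.8 in unstimulated cells and at 221.4 and 115.4 after TRAP (-1.46 ± 0.20, adjusted p = 0.000812). Chac1, an enzyme that degrades glutathione, went from 575.8 and 597.5 to 276.8 and 196.3 (-1.27 ± 0.14, adjusted p = 0.000177). Sesn2, a sestrin that restrains growth signalling when amino acids are scarce, went from 725.1 and 776 to 371.4 and 255.1 (-1.24 ± 0.14, adjusted p = 0.000212). All 3 were lower on TRAP replicate 2 than on replicate 1. Other kept probe sets changed by -0.83 for Sesn2 (not called), and by -1.14 (called) and -0.80 (not called) for Trib3. Atf4 itself and Asns, a classical target that makes asparagine, were chosen after their values were seen. Atf4 was at 3940 and 4328, then 4165 and 3576 (-0.10 ± 0.11, adjusted p = 0.740), and Asns was at 1694 and 1876, then 1794 and 1474 (-0.13 ± 0.13, adjusted p = 0.692), so the groups overlapped in both. Klf15, a factor of metabolism that restrains smooth muscle growth, was at 218.9 and 167, then 78.0 and 66.4 (-1.24 ± 0.21, adjusted p = 0.00536). Its call was lost without unstimulated replicate 1, and another kept probe set of Klf15 changed by -0.91 and was not called. Kcne4, an accessory subunit of potassium channels, fell from 167.7 and 151.2 to 57.6 and 55.7 (-1.27 ± 0.19, adjusted p = 0.00187).

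Of 24 measured actin genes and targets of SRF none rose and 1 fell, a share of 4.17% beside 3.96% over all genes. It was the actin-binding protein Palld, from 3121 and 2955 to 2030 and 1762 (-0.68 ± 0.12, adjusted p = 0.00447). The call of Palld was lost without unstimulated replicate 1 (adjusted p = 0.0643) or TRAP replicate 2 (adjusted p = 0.0550). No gene of DNA replication and mitosis was called among 30 measured (median -0.32), and none among 15 regulators of the G1 phase (median -0.27). Mki67, a marker of cycling cells, was at 1096 and 925.7 in unstimulated cells and at 526.6 and 900.3 after TRAP (-0.54 ± 0.25, adjusted p = 0.301). Only TRAP replicate 1 was clearly lower. Of the endothelial markers 2 of 10 passed the filter, and the sum over the 10 was 278.9 and 318.7, then 590.9 and 813.1. That sum was carried by Flt1, a receptor for VEGF, at 193.8 and 226.2, then 495.4 and 714.8 (1.44 ± 0.21, adjusted p = 0.00187), while Pecam1 stayed at or below 7.5. Other kept probe sets of Flt1 changed by 0.94 (called) and by -0.02 (not called). The sum over 13 leukocyte markers was 424.6 and 429.3, then 533 and 553.8, of which Cd14 made up 302.4 and 326.2, then 402.3 and 404.5. The part of other cell types in the changes of the inflammatory genes was not tested beyond these values.

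Further lists held between 0 and 5 calls, to be read beside the 3.96% called over all genes. Of 17 measured heat shock proteins and chaperones 3 rose and none fell (17.6% called, median 0.16), among them Dnajb1, a cochaperone induced by unfolded proteins. Dnajb1 was at 711.6 and 731.8 in unstimulated cells and at 1154 and 1280 after TRAP (0.74 ± 0.10, adjusted p = 0.000571). That count became 1 without unstimulated replicate 1 or TRAP replicate 2. Of 21 cyclic AMP, CREB and clock genes, Noct included, 4 rose and 1 fell (23.8% called, median 0.19), and the rises numbered 2 or fewer without any 1 of the 4 arrays. Of 23 genes of growth arrest and FoxO targets 2 rose and 2 fell (17.4% called, median -0.28), and none was called without unstimulated replicate 1. Of 20 collagens and elastic fibre genes 1 rose and 1 fell (median 0.05), and neither call was kept in every fit that left out an array. Of 13 channels and receptors of smooth muscle none rose and 2 fell, Kcne4 included (15.4% called, median 0.09), which became 1 without either unstimulated array or TRAP replicate 2. Of 9 interferon-stimulated genes 1 rose and none fell (median 0.08), a call lost without any 1 of the 4 arrays, and none of 8 adventitial fibroblast markers (median -0.20) or 7 reference genes (median 0.05) was called. The few Schwann cell and adipocyte markers above the filter, 2 and 1, were not called either.

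The TRAP replicates differed widely in acute-phase genes, which is a description with no test. Saa3, an acute-phase protein that macrophages and mesenchymal cells secrete, was at 18.1 and 15.9 in unstimulated cells, at 222.5 on TRAP replicate 1 and at 22.8 on replicate 2. Lcn2, which binds iron carriers of bacteria, was at 32.8 and 23.5, then 293.9 and 20.2. C3, the central component of complement, was at 18 and 13, then 164.9 and 6.0. In these genes TRAP replicate 2 lay near the unstimulated arrays and replicate 1 far above them. Pla2g2a, a secreted phospholipase, was at 9.8 and 7.8, then 230.9 and 3.3. Lbp, the binding protein of bacterial lipopolysaccharide, was at 625.5 and 641.9, then 1508 and 678.4. All 11 measured acute-phase and complement genes were higher on replicate 1 than on replicate 2, beside 4464 of 9906 over all genes. Measured from the mean of the unstimulated arrays, their median log2 change was 0.89 on replicate 1 and 0.02 on replicate 2. Saa3 and Lcn2 are among the 11 and were known beforehand to differ between these replicates. The count and the medians thus partly restate what was known. Of these 11 genes, Il1r1, the receptor of interleukin 1, alone was called, at 572.9 and 598.6, then 1093 and 1045 (0.85 ± 0.14, adjusted p = 0.00303), near equal on both replicates. Other kept probe sets of Il1r1 changed by 0.52 and 0.48 and were not called.

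Other lists also differed between the TRAP replicates. The median log2 change of NF-kB genes was 0.80 on TRAP replicate 1 and 0.39 on replicate 2, with 14 of 17 higher on replicate 1. That of chemokines and cytokines was 1.03 and 0.69, with 13 of 15 higher on replicate 1. Immediate-early factors had medians of 0.61 and 0.49, but only 10 of 30 were higher on replicate 1. DNA replication and mitosis genes had medians of -0.59 and -0.04, and 29 of 30 were lower on replicate 1. Over all genes the medians were -0.04 and -0.02, and 4464 of 9906 genes were higher on replicate 1. In the other direction, Serpinb2, at 73.6 and 204, and Akap12, an anchor protein for protein kinase A, at 1568 and 3729, were lower on replicate 1. Adamts5, a protease that cuts aggrecan, was at 732.7 and 668.7 in unstimulated cells, at 189.2 on TRAP replicate 1 and at 594.3 on replicate 2. Without TRAP replicate 1, 442 probe sets were called after TRAP, beside 208 to 348 without 1 of the other 3 arrays.

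**Figure D3:**
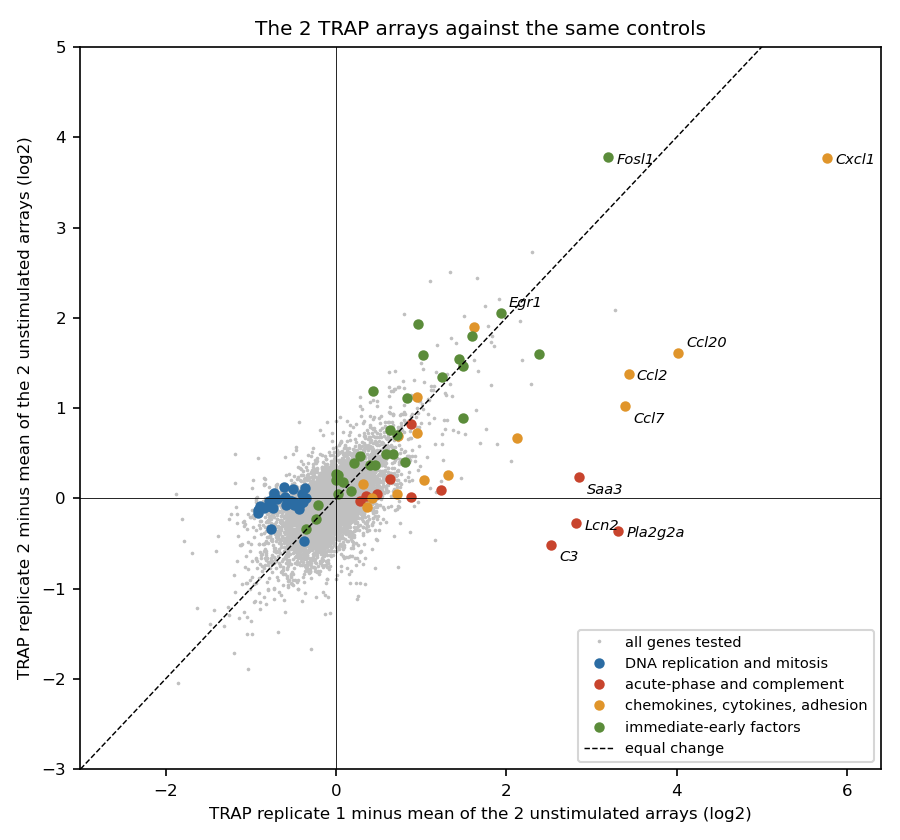
Change of each gene on TRAP replicate 1 (horizontal) and TRAP replicate 2 (vertical) against the same mean of the 2 unstimulated arrays, in log2(signal + 16), with 4 gene lists in colour and a dashed line of equal change. Saa3, Lcn2, C3 and Pla2g2a lie far to the right at heights near 0, mitosis genes lie left of 0 at heights near 0, and Egr1, an immediate-early factor, lies near the line.

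TRAP was next set beside thrombin, which was measured against unstimulated arrays of its own. Each stimulus was given in its own experiment, so stimulus and experiment cannot be told apart in the differences below. Of the 213 genes that rose after TRAP, 112 also rose after thrombin, which is 52.6% of those of TRAP and 38.1% of the 294 of thrombin, and 2 fell. Of the 179 that fell, 38 also fell after thrombin, which is 21.2% of those of TRAP and 14.4% of the 263 of thrombin, and 2 rose. Over all 9906 genes, 294 rose and 263 fell after thrombin. Called or not after thrombin, 187 of the 213 (87.8%) and 148 of the 179 (82.7%) changed in the same direction. Such a share over all genes is not given here. Fosl1 changed by 3.49 after TRAP and 3.78 after thrombin, Plaur by 1.94 and 2.32, and Hbegf by 1.57 and 1.98. The difference of the responses, tested as an interaction, was called for 51 genes (0.515%), of which 26 were lower (0.262%) and 25 higher (0.252%) after thrombin. Of the 51 genes, 18 were called in each fit that leaves out an array of the TRAP experiment, and 8 in none. The probe sets called numbered 99, and 37, 33, 73 and 67 without unstimulated replicates 1 and 2 and TRAP replicates 1 and 2. They numbered 60, 140, 33 and 39 without the unstimulated and then the stimulated replicates 1 and 2 of the thrombin experiment, and 23 without an intensity trend in the prior, a fit that called 14 of the 51 genes. The 18 genes were also called in each fit that leaves out an array of the thrombin experiment.

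The aryl hydrocarbon receptor targets that rose after TRAP differed in their change between the TRAP and the thrombin experiment. Tiparp changed by 1.54 ± 0.10 after TRAP and by -0.15 ± 0.10 after thrombin (adjusted p of the difference 0.000207, limma). Ahrr changed by 1.16 ± 0.13 and -0.21 ± 0.13 (0.00376), and Cyp1b1 by 0.98 ± 0.10 and -0.27 ± 0.10 (0.00172). None of the 3 was called changed after thrombin. The cytokine genes Tslp and Il15 also differed, Tslp with 1.76 ± 0.17 after TRAP and 0.05 ± 0.17 after thrombin (adjusted p = 0.00505), and Il15 with 0.71 ± 0.13 and -1.06 ± 0.13 (adjusted p = 0.000912). Cebpd changed by 1.99 ± 0.23 and -0.34 ± 0.23 (adjusted p = 0.00505), and Irf1 by 1.17 ± 0.14 and -0.49 ± 0.14 (adjusted p = 0.00183). These 7 differences were called in each fit that left out an array of the TRAP or the thrombin experiment. Without the intensity trend that of Cebpd was lost (adjusted p = 0.0567).

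The change was higher in the thrombin experiment for other genes. Klf6, a Kruppel-like factor, changed by 0.13 ± 0.15 after TRAP and rose by 1.78 ± 0.15 after thrombin (adjusted p of the difference 0.00328, limma). Myc changed by -0.34 ± 0.12 and rose by 1.08 ± 0.12 (0.00172). Ptgs2 rose after both, by 1.82 ± 0.12 and 3.03 ± 0.12 (0.00505). Palld fell by 0.68 ± 0.12 after TRAP and rose by 0.51 ± 0.12 after thrombin (0.0048). Among genes that fell after TRAP, Chac1 changed by -1.27 ± 0.14 and 0.35 ± 0.14 (0.0026), and Arid5b by -1.37 ± 0.15 and 0.33 ± 0.15 (0.00296). These 6 differences, too, were called in each fit that left out an array of either experiment, but those of Ptgs2 and Palld were lost without the intensity trend (adjusted p = 0.0567 for both). Those of Trib3 (adjusted p = 0.0271, highest 0.136 with an array of the TRAP experiment left out), Sesn2 (0.0271, highest 0.135), Bambi (0.0139, highest 0.0829) and Nfix (0.00964, highest 0.0623) were not. The same holds for Tgif1 (0.0260), Zfp36 (0.0275) and Zfp36l1 (0.0457). Unlike the other genes of this paragraph, Bambi, Tgif1 and Zfp36l1 had the lower change in the thrombin experiment. Their thrombin response minus TRAP response was -1.48, -0.83 and -1.04 on the log2 scale.

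**Figure D4:**
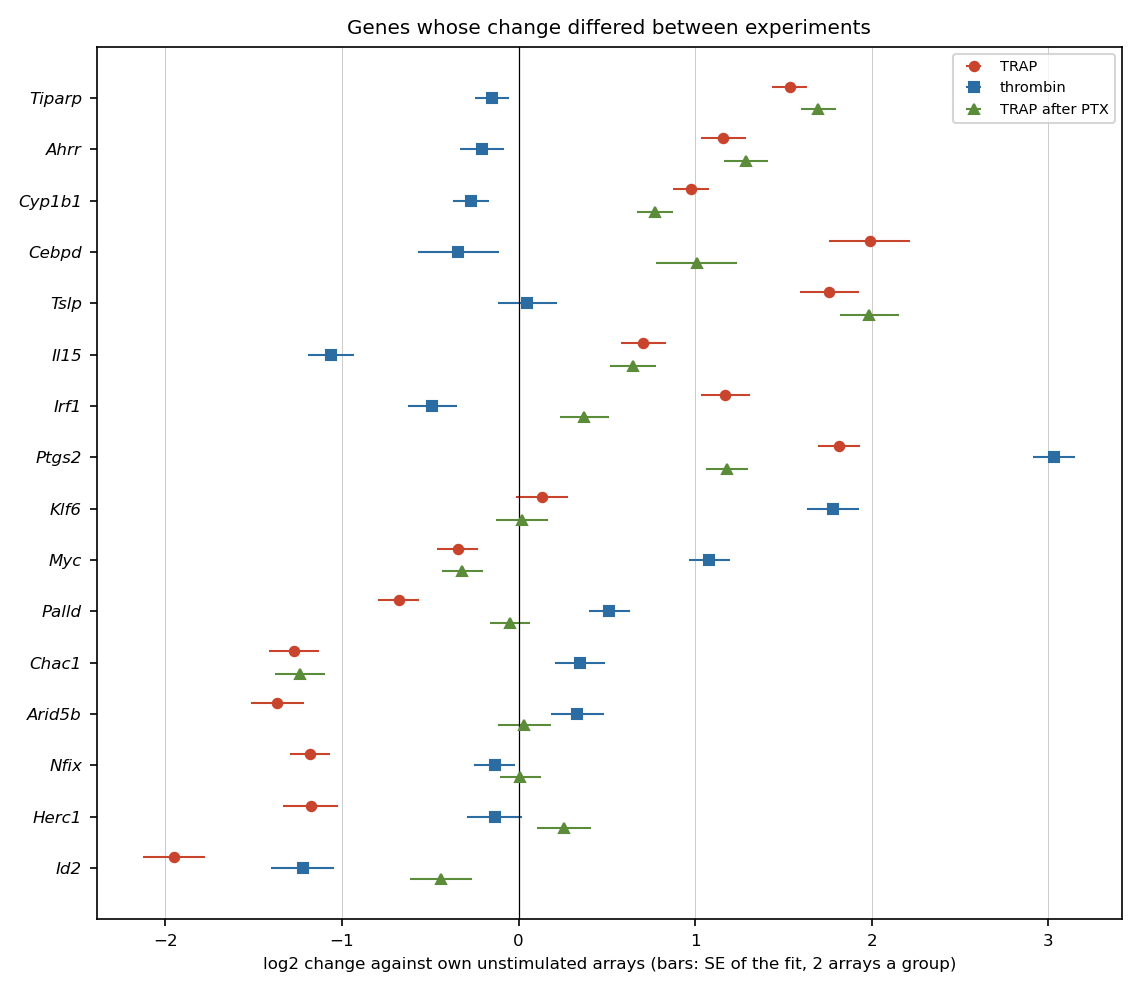
Log2 change against the unstimulated arrays of the same experiment after TRAP (circles), thrombin (squares) and TRAP after PTX (triangles) for 16 genes whose change differed between experiments by the test of the difference, with bars for the SE of the fit and 2 arrays a group. Tiparp, Ahrr, Cyp1b1, Tslp and Il15 lie to the right after both TRAP treatments and at or left of 0 after thrombin, and Nfix and Arid5b lie well left of 0 after TRAP alone.

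TRAP after PTX was the nearest of the 2 other experiments in its design, with the same peptide at the same dose and time. Here too, treatment and experiment cannot be told apart. Of the 213 genes that rose after TRAP, 112 also rose after PTX and TRAP, which is 52.6% of those of TRAP and 67.1% of the 167 of the PTX experiment, and none fell. Of the 179 that fell, 44 also fell, which is 24.6% of those of TRAP and 34.9% of 126, and 2 rose. Over all 9906 genes, 167 rose and 126 fell after PTX and TRAP. Called or not after PTX and TRAP, 205 of the 213 (96.2%) and 143 of the 179 (79.9%) changed in the same direction. Tiparp changed by 1.54 ± 0.10 after TRAP and 1.70 ± 0.10 after PTX and TRAP, Tslp by 1.76 ± 0.17 and 1.99 ± 0.17, and Dusp6 by 2.06 ± 0.15 and 1.92 ± 0.15. The difference of the responses was called for 9 genes (0.0909%), each higher after PTX and TRAP. Nfix fell by 1.18 ± 0.12 after TRAP and changed by 0.01 ± 0.12 after PTX and TRAP (adjusted p of the difference 0.0158, limma). Id2 fell by 1.95 ± 0.18 and changed by -0.44 ± 0.18 (0.0356), Arid5b fell by 1.37 ± 0.15 and changed by 0.03 ± 0.15 (0.0261), and Herc1, a large ubiquitin ligase, fell by 1.18 ± 0.16 and changed by 0.26 ± 0.16 (0.0261). For none of the 9 was the difference called whichever array of the TRAP experiment was left out. The 24 probe sets called became 0, 1, 47 and 0 without unstimulated replicates 1 and 2 and TRAP replicates 1 and 2. They became 33, 0, 0 and 26 without the unstimulated and then the stimulated replicates 1 and 2 of the PTX experiment. Without an intensity trend in the prior 0 probe sets were called (1512 at an unadjusted p under 0.05), and 1 with only the arrays compared. Neither fit called any of the 9 genes. For Nfix the adjusted p was 0.00731 without TRAP replicate 1 and up to 0.104 otherwise, for Id2 up to 0.176, for Arid5b up to 0.143 and for Herc1 up to 0.193. A p that misses the threshold does not show that the responses were alike.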

How the data were processed

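Each of 12 RNA samples from rat aortic smooth muscle cells was measured on a 1-colour Affymetrix array with 31099 probe sets. The deposited table holds linear intensity, 1 value per probe set and array, made by the authors with GCOS 1.4, per the submitters' processing notes. The annotation and genome build used for them are not given in the sources used here. The mean of each array without its lowest and highest 2% of values was near 200.07, so arrays had been scaled to a common mean. Detection calls were not used, so no fold is given as a bound.

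Analyses used log2(signal + 16), a scale on which changes of dim genes come out too small. After removal of 57 control probe sets, those whose mean over the 12 arrays lay above the 40th percentile were kept (18625). A gene is its brightest kept probe set with exactly 1 symbol in the array annotation (9906 genes). Of the probe sets 20826 list 1 symbol, 436 several and 9780 none. Of the genes named by rule and called after TRAP, 26 have another kept probe set, 36 probe sets in all, of which 28 changed in the same direction, 8 were called in it and 0 in the opposite one.

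Groups were taken from the titles. One limma 3.58.1 model under R 4.3.3, with lmFit and an eBayes prior that follows intensity, covered all 6 groups of 2 arrays, with 6 residual degrees of freedom and a prior of 7.5. Tests were 2-sided, adjusted by Benjamini-Hochberg over all kept probe sets, with a threshold of 0.05. Contrasts were TRAP against its own unstimulated arrays, and the thrombin or PTX response minus the TRAP response. An array left alone in its group is taken to vary as the others do. The fit was tested on simulated data.

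There were 29 gene lists with 613 genes. Named genes are the 25 largest rises and 20 largest falls among called genes whose groups do not overlap, from each list the 6 members of lowest p (fewer in short lists), the thrombin receptors, up to 8 genes per direction in each test of a difference, the 12 genes per direction that differ most between the TRAP replicates, and Saa3, Lcn2, C3, Pla2g2a, Lbp, Ccl2 and Mki67. Named genes outside this rule are Fos, Rela, Atf4, Asns and the cell type markers Acta2, Myh11, Des, Mfap5, Dcn, Tcf21, Pecam1, Ptprc and Cd14. The result of 1 list is not reported here. The members and lists were chosen with earlier results of these data known. The alternatives changed the pseudocount, the filter, the scaling or the trend, or used array weights, a replicate block, fewer or more arrays, or left out each array of the experiment. Fits without replicate 1 of both TRAP-stimulated groups, and without each array of the thrombin and PTX experiments for the differences, were chosen after seeing the data.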

Additional observations from a re-analysis of the deposited data

Results flagged for a closer look

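In 20 of the genes described, the response to thrombin differed from that to TRAP by limma's test of the difference at an adjusted p under 0.05, out of 51 genes in all. The values are the thrombin response minus the TRAP response on the log2 scale, over 2 arrays a group. Stimulus and experiment cannot be told apart in them. The response to thrombin was the lower one for Cebpd (-2.33), Il15 (-1.77), Tslp (-1.71), Tiparp (-1.69), Irf1 (-1.66), Bambi (-1.48), Ahrr (-1.37), Cyp1b1 (-1.24), Zfp36l1 (-1.04) and Tgif1 (-0.83). It was the higher one for Arid5b (1.70), Klf6 (1.65), Chac1 (1.62), Trib3 (1.51), Myc (1.43), Ptgs2 (1.22), Palld (1.19), Sesn2 (1.09), Nfix (1.05) and Zfp36 (0.74).

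In 4 of the genes described the response to TRAP after PTX differed from that to TRAP alone, each time upwards, by 1.51 for Id2, 1.44 for Herc1, 1.398 for Arid5b and 1.19 for Nfix. The cause of these differences was not tested.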

How the results depend on the processing

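The 727 probe sets called after TRAP stayed within 1.5 times that number under other pseudocounts, filters and scalings and without an intensity trend. They became 1111 with array weights, 73 with all 6 unstimulated arrays as the control, and 208 to 442 with an array of the experiment left out. The 99 called for thrombin minus TRAP became 23 without an intensity trend and 33 to 140 with an array left out. The 24 called for TRAP after PTX minus TRAP became 13 without the filter, 0 without the trend (1512 at an unadjusted p under 0.05 by limma), 1 with only the arrays compared, 9 without both replicates 1, and 0 to 47 with an array left out. Fewer arrays leave fewer degrees of freedom, and the cause was otherwise not tested. Of 57 described genes called after TRAP, 49 were called in each fit without an array, and 17 with all 6 unstimulated arrays as the control. Of the 57, Meox2 alone changed direction, to 0.22 with that control.

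The median change of all genes was 0.036 after centring and -0.009 after quantile normalization. After centring the list medians were 0.13 for growth factors, 0.076 for BMP, TGF-beta and Notch genes, 0.26 for cyclic AMP and clock genes, -0.17 for developmental factors, 0.14 for interferon-stimulated and 0.11 for reference genes. After quantile normalization they were -0.21 for growth arrest, 0.27 for cyclic AMP and clock and -0.031 for reference genes. Without both replicates 1 they were 0.024 for acute-phase, 0.23 for cyclic AMP and clock, -0.12 for G1 and -0.043 for fibroblast genes. With an array left out, medians ranged from 0.39 to 0.80 for NF-kB, 0.024 to 0.89 for acute-phase, 0.063 to 0.078 for growth factor, -0.05 to -0.002 for BMP, TGF-beta and Notch, -0.28 to -0.18 for growth arrest, 0.16 to 0.23 for cyclic AMP and clock, -0.33 to -0.23 for developmental, -0.31 to -0.12 for G1, 0.074 to 0.17 for heat shock, -0.25 to -0.043 for fibroblast and 0.002 to 0.078 for reference genes.

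The numbers were not taken as pairs, because the labels do not say that a number marks a shared culture. Same-numbered arrays deviated together only weakly (r = 0.134, 0.104 and 0.022 in the thrombin, TRAP and PTX experiments). With the replicate number within each experiment as a block, 747 probe sets were called after TRAP, 89 for thrombin minus TRAP and 23 for TRAP after PTX minus TRAP.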
